A study of Homo sapiens with 12 samples.

Results

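The libraries labelled KDR were compared with the libraries labelled KD2 across all expressed genes in MDA-PCa-2b, a widely used human cell line derived from prostate cancer. The members were taken by title: 3 KDR and 3 KD2 libraries, 6 of the 12 in the series. The labels give KD2 as the second of 2 DHODH knockdown lines and describe KDR as a rescue made from it. The remaining groups, NT and the first knockdown KD1, have 3 libraries each and appear here as reference levels. All 12 libraries came from cells described as grown in BRFF-HPC1 medium with 20% serum, and no further agent is named for any group. The labels do not spell out NT, do not name the knockdown construct and do not say how the rescue was introduced, whether it was 1 clone, or whether the libraries of a group came from separate cultures. The p-values therefore rest on differences between libraries of a group, and these may be technical. The growth protocol also mentions MDA-PCa-2a, a sister line.

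Dihydroorotate dehydrogenase, the enzyme encoded by DHODH, sits in the inner mitochondrial membrane and carries out the fourth step of pyrimidine synthesis, handing its electrons to ubiquinone. CAD carries out the steps before it and UMPS those after it, ending in uridine monophosphate, from which cells make the pyrimidines of RNA and DNA. The enzyme thereby ties nucleotide supply, and with it DNA replication, to the respiratory chain. In prostate luminal cells, androgens drive a secretory programme of which KLK3 (prostate-specific antigen) is the best known product.

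DHODH itself was higher in KDR, and the genes of the enzymes around it were at or below the KD2 level. DHODH (ENSG00000102967, GRCh38 chr16:72008588-72027664) stood at 11.4, 13.0 and 14.9 CPM (counts scaled to library size) in the KD2 libraries and at 18.9, 19.2 and 17.5 CPM in the KDR libraries. Every KDR library lay above every KD2 library, with 1133 counts over the KD2 libraries and 1723 over the KDR libraries. The log2 fold change was 0.51 ± 0.14 (SE, n = 3 against 3; edgeR quasi-likelihood test, Benjamini-Hochberg adjusted p = 0.0064). Without KD2 replicate 1 it was 0.41 with an adjusted p of 0.052. The mean was 10.5 CPM in NT and 10.3 in KD1, so the libraries labelled KD2 did not show less DHODH RNA than NT (log2 fold change 0.31, adjusted p = 0.097). Without NT replicate 2, which stands apart from the other NT libraries, KD2 was above NT by 0.52 (adjusted p = 0.0014). Directions below therefore belong to the labels KD2 and KDR, and not to a measured loss and return of DHODH RNA.

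CAD (ENSG00000084774, chr2:27217369-27243943) stood at 155, 168 and 162 CPM in KD2 and 128, 131 and 119 in KDR, a fall by 0.36 on the log2 scale (SE 0.08, adjusted p = 0.0014). Its groups did not overlap, and the mean was 126 CPM in both KDR and NT. UMPS (ENSG00000114491, chr3:124730433-124749273) stood at 32.4, 30.1 and 31.1 CPM in KD2 and 25.2, 28.0 and 28.1 in KDR. Its log2 fold change of -0.21 ± 0.08 missed the threshold (adjusted p = 0.058), although the groups did not overlap. It was called lower without NT replicate 2 (adjusted p = 0.025), with DESeq2 (0.039), with limma-voom (0.020) and in a fit of only the KD2 and KDR libraries (0.030).

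Of 19373 genes tested, 6285 (32.4%) were called at an adjusted p under 0.05, 2972 (15.3%) higher in KDR and 3313 (17.1%) lower. At least a 2-fold change was called for 1683 genes (8.69%), 918 higher (4.74%) and 765 lower (3.95%). The KD2 and KDR libraries did not overlap for 9662 genes (49.9%). The median log2 fold change over all tested genes was 0.016, with quartiles of -0.25 and 0.35. Total counts ran from 24557758 to 36039315 over these 6 libraries. The typical spread between replicates, as a coefficient of variation beyond counting error, was 7.17% in KD2 and 5.53% in KDR, against 15.7% in NT. The mean was at least 5 CPM in 11217 genes, and for these the 95% interval of the fold change lay within 2-fold in either direction for 91.4%. On the first principal component, with 34.3% of the variance between libraries, KDR lay at 6.36 to 7.89, between KD2 at 68.6 to 71.1 and the NT and KD1 libraries at -40.5 to -36.6. On the second component KDR stood alone at -63.8 to -61.5, and all other libraries lay between 15.7 and 27.2.

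**Figure D1:**
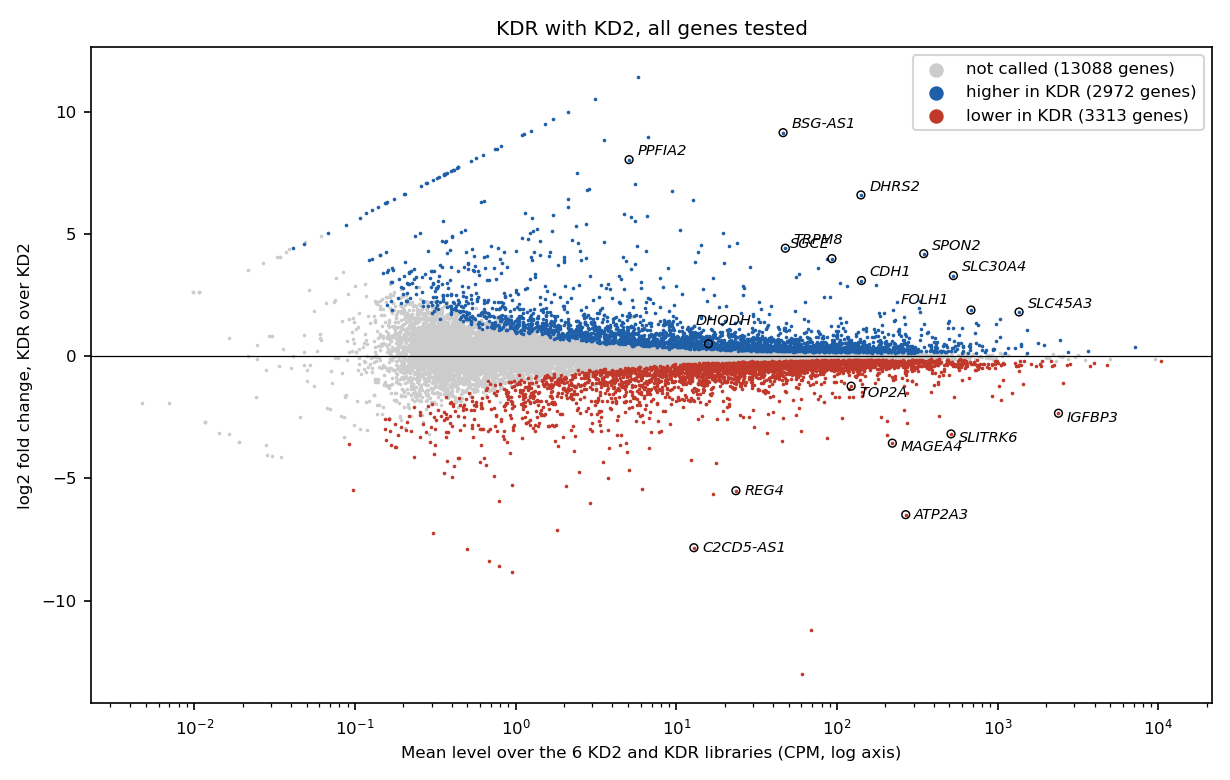
Each point is 1 of the 19373 genes tested; the x axis is its mean level over the 6 KD2 and KDR libraries (CPM, log axis) and the y axis its log2 fold change, KDR over KD2. Blue marks the 2972 genes called higher in KDR and red the 3313 called lower; circled genes are described in the text, with DHODH at 0.51.

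The largest rises of protein-coding genes at 5 CPM or more on average included SPON2 and DHRS2; noncoding genes are described further on. SPON2, which encodes the secreted matrix protein spondin 2 (chr4:1166932-1208962), stood at 35.1, 32.8 and 40.1 CPM in KD2 and 675, 667 and 627 in KDR, a log2 fold change of 4.19 ± 0.07 (adjusted p = 7.3e-22). All 3 KDR libraries remained below the NT mean of 1038 CPM. DHRS2, a short-chain dehydrogenase, stood at 3.04, 3.12 and 2.38 CPM in KD2 and 268, 284 and 283 in KDR (6.59 ± 0.10, adjusted p = 5.2e-22). Its KDR libraries lay above the NT mean of 80.6 CPM as well as above KD2. CDH1, a member of the epithelial adhesion list that encodes E-cadherin, rose from 25.6, 29.3 and 34.6 CPM to 257, 253 and 251 (3.09 ± 0.08), beside a mean of 304 in NT.

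Other large rises involved genes at or below 11.9 CPM in every KD2 library. PPFIA2, which encodes a liprin scaffold protein, had 3 counts over the KD2 libraries and 932 over the KDR libraries, a ratio of 295 with a 95% counting interval of 101 to 1435, while its NT mean was 0.495 CPM. TMEFF2 (6.74 on the log2 scale), a transmembrane protein of prostate epithelium, and CEACAM20 (6.39), a cell adhesion molecule, rose to 17.6 to 19.4 and 24.3 to 26.6 CPM. SLC22A3, an organic cation transporter, rose by 5.03 to 36.6 to 39.0 CPM, under its NT mean of 114. TRPM8, the cold and menthol channel of prostate epithelium, stood at 4.26, 5.21 and 3.21 CPM in KD2 and 91.3, 87.7 and 94.2 in KDR (4.42 ± 0.13), with 20.2 as the NT mean. FLG (filaggrin), PAPPA2 (a protease of IGF-binding proteins), UGT2B28 (an enzyme of androgen clearance), POTEI (of a primate gene family expressed in prostate), NCAM2 (a neural adhesion molecule) and NAALADL2 (a relative of FOLH1) rose by 3.97 to 4.63.

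In the other direction, the largest fall of a protein-coding gene at 5 CPM or more on average was that of ATP2A3, which encodes the SERCA3 calcium pump of the endoplasmic reticulum. ATP2A3 stood at 502, 545 and 539 CPM in the KD2 libraries and at 5.15, 5.84 and 6.88 in the KDR libraries, beside means of 8.66 in NT and 8.28 in KD1. It fell by 6.48 on the log2 scale (SE 0.11, adjusted p = 7.3e-22). SLITRK6, a neuronal-type transmembrane protein, went from 962, 920 and 883 CPM to 104, 98.1 and 103 (NT mean 66.0). IGFBP3, which binds insulin-like growth factors, went from 4002, 3936 and 4008 CPM to 794, 799 and 779, above its NT mean of 552. For both genes every KDR library lay between KD2 and the NT and KD1 libraries. REG4 (-5.50), a secreted lectin, SHBG (-5.44), the sex hormone binding globulin, ZBTB7C (-4.39), a zinc finger repressor, and INHBA (-3.76), the activin A subunit, also fell. SHBG overlaps SAT2 and FXR2 on the other strand, which were 0.37 and 0.21 higher in KDR. LANCL3, TSPAN12 (a tetraspanin of Norrin signalling), FGF12, CPED1, EPDR1, GBP2 (an interferon-induced GTPase) and TMEM100 fell by 3.06 to 3.47.

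Where the mean level reached 200 CPM or more, SPON2 and SLC30A4 were among the largest rises, and the falls were led by ATP2A3, MAGEA4 and FGF12. SLC30A4, which loads zinc into secretory vesicles, stood at 104, 96.6 and 93.6 CPM in KD2 and 968, 938 and 978 in KDR (3.29 ± 0.06, adjusted p = 9.6e-21). The KDR libraries lay below the NT mean of 1092 CPM. ABCC11, an ABC transporter, and SLC41A1, a magnesium carrier, rose by 1.97 and 1.89. ABCC11 overlaps LONP2 on the other strand, which was 0.21 higher in KDR. Falls among abundant genes included PRSS23 (-2.74), a serine protease, KIF3A (-2.64), a motor of intraflagellar transport, and CADPS2 (-2.47), a factor of vesicle release. Of these, CADPS2 fell from 716 to 746 CPM in KD2 to 127 to 135 in KDR, under its NT mean of 215.

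For some genes KDR stood apart from KD2, NT and KD1 alike. SGCE, which encodes epsilon-sarcoglycan and is expressed from the paternal allele, stood at 10.8, 10.9 and 11.3 CPM in KD2 and 173, 173 and 178 in KDR, with means of 11.1 in NT and 10.9 in KD1. Its log2 fold change was 3.99 ± 0.10 against KD2 (adjusted p = 7.7e-19) and 3.97 against NT. PEG10, the imprinted neighbour that starts back to back with SGCE and overlaps it on the other strand, rose from at most 2.67 CPM to 9.77 to 12.2 (2.38 ± 0.25). The counting recorded no strand, so reads from such overlapping pairs cannot be told apart. UGT2B11 and UGT2B28, closely related enzymes that attach glucuronic acid to androgens, rose by 3.21 and 4.50 to 10.6 to 14.8 CPM, while their NT means were 1.75 and 0.922. NAALADL2 stood at 44.5 to 47.2 CPM in KDR and at 1.56 to 2.046 in KD2, with 3.39 as its NT mean. MAGEA4 and GPD2 stood lower in KDR than in each of the other groups: GPD2, the glycerol 3-phosphate dehydrogenase that also reduces ubiquinone, was at 8.35 to 8.67 CPM in KDR, 29.6 to 31.3 in KD2 and a mean of 16.3 in NT.

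**Figure D2:**
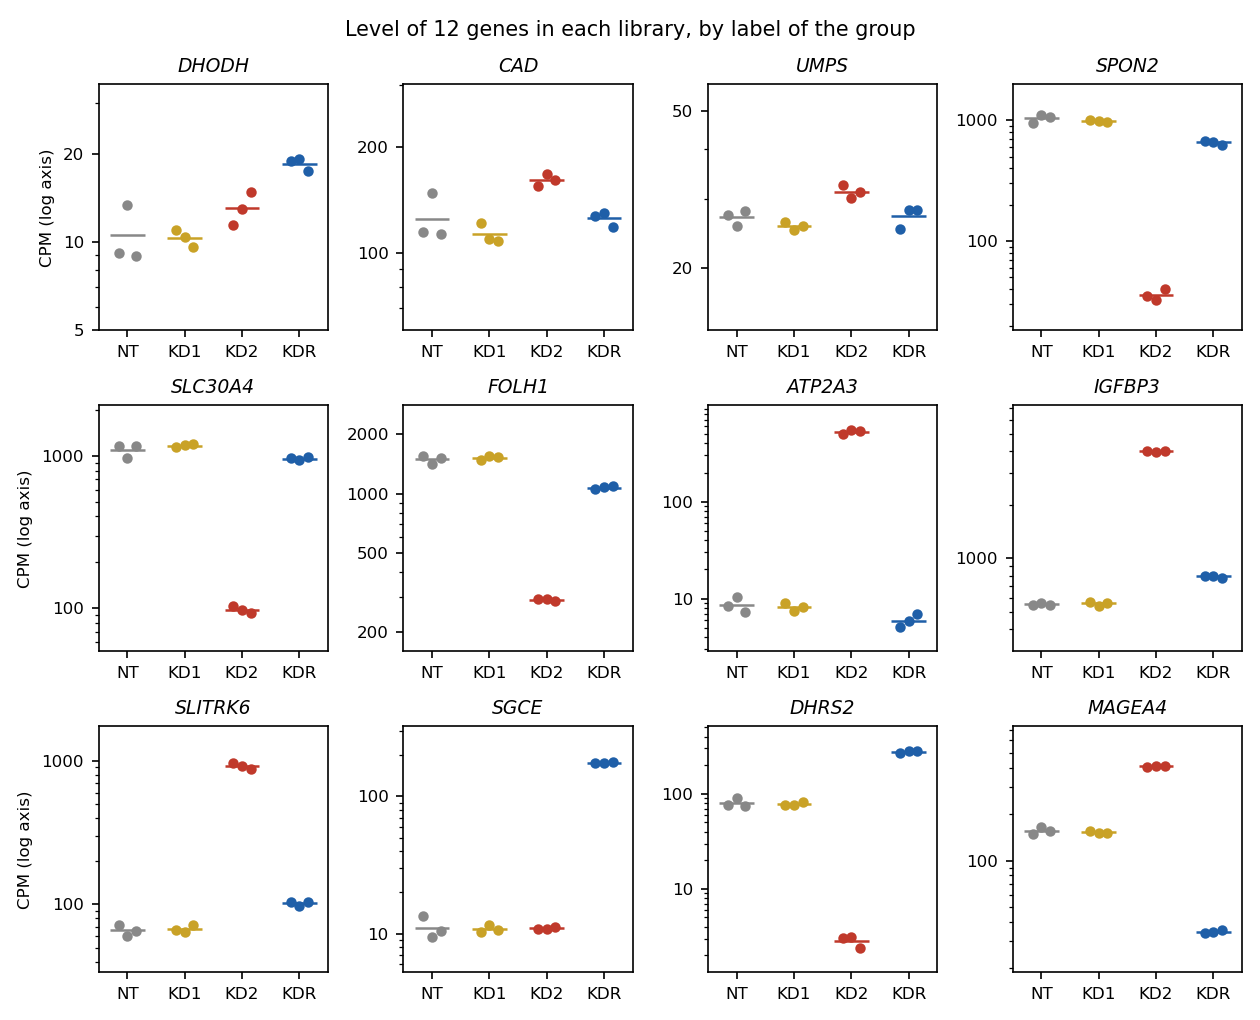
Each panel shows 1 gene, with its level (CPM, log axis) in each of the 12 libraries as points and the group mean as a bar, by label of the group. The KD2 libraries stand apart in panels such as SPON2 and ATP2A3, and the KDR libraries in the panel of SGCE (173 to 178 CPM).

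Genes of cell division were lower in KDR. Of 33 tested genes of mitosis and G2/M, 32 (97.0%) fell and none rose, beside 17.1% lower and 15.3% higher over all tested genes. The median log2 fold change was -1.04, against 0.016 over all genes. The 17.1% and 15.3% over all genes are the reference for every list below, and counts near them do not set a list apart. That reference is not matched for level. Among protein-coding genes, 23.1% fell and 15.3% rose at 20 to 100 CPM, and 30.3% and 20.5% over 100 CPM. Lists of well-expressed genes can therefore exceed the all-gene shares through their level alone. TOP2A, the topoisomerase that untangles chromosomes, stood at 180, 168 and 166 CPM in KD2 and 70.9, 75.2 and 73.9 in KDR (-1.22 ± 0.07, adjusted p = 3.3e-12), with an NT mean of 38.7. The proliferation marker MKI67, the spindle factor TPX2, the survivin gene BIRC5 and the kinetochore gene CENPF fell by 1.06 to 1.35. The member that was not called, PRC1, had at most 23 counts in a library and overlaps another annotated gene on the same strand (log2 fold change -0.88, adjusted p = 0.37). The members summed to 1095 to 1136 CPM in KD2, 524 to 538 in KDR, 286 to 312 in NT and 292 to 316 in KD1. KDR thus stood between KD2 and NT, without overlap. In RNA from a whole culture, fewer dividing cells and less RNA per cell cannot be told apart.

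Many promoters of such genes carry the cell cycle genes homology region (CHR), the letters TTTGAA, through which the DREAM and B-MYB complexes act. RefSeq promoters (GRCh38.p14, the 250 bases before and 50 after the gene start) were matched by symbol for 27 of the 33 genes. TTTGAA occurred on either strand in 20 of these 27 genes (74.1%), beside 15.2% of all 35116 promoters of the same length and 18.2% of 27305 genes. The stretches around the match of TOP2A (chr17:40418002-40418087, minus strand), CDK1 (chr10:60778130-60778215, plus strand), CCNB2 (chr15:59105077-59105145, plus strand) and PLK1 (chr16:23678820-23678888, plus strand) are shown 5′ to 3′ on the gene's strand, because these genes cover entry into and passage through mitosis. Capitals mark TTTGAA or, in TOP2A, its reverse complement TTCAAA.
TOP2A: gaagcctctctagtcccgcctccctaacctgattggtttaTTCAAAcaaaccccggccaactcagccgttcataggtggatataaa
CDK1: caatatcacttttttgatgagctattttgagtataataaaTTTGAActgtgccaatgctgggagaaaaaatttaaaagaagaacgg
CCNB2: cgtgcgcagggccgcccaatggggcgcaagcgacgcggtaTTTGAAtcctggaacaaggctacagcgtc
PLK1: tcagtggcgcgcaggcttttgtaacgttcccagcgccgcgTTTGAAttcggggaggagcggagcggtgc

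CDK1, CCNB2 and PLK1 were chosen after their values were seen, for their known promoters. Each stretch above marks the last match before the gene start, which in CDK1 begins 161 bases before it. Matches past the gene start were not shown. Whether the marked letters are the known element of a promoter was not tested. CDK1, the kinase that starts mitosis, stood at 51.7, 52.8 and 49.0 CPM in KD2 and 27.0, 25.7 and 24.4 in KDR (-0.99 ± 0.09). CCNB2, a cyclin partner of CDK1, went from 25.2, 22.9 and 21.2 CPM to 13.0, 11.9 and 15.4 (-0.79 ± 0.12). PLK1, a mitotic kinase, went from 25.3, 24.5 and 24.8 to 12.5, 12.3 and 12.7 (-0.998 ± 0.14). None of these groups overlapped. The match is a description of letters and no measured binding. The list holds known cell cycle genes, so its share with TTTGAA describes the list and not KDR against KD2. Members outside the carriers found, such as BIRC5 and TPX2, fell as well.

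Of 39 tested genes of DNA replication and the G1/S step, 25 (64.1%) fell and none rose, with a median of -0.38. UHRF1, which brings DNA methylation to new strands, fell by 1.17 and DTL, which destroys licensing factors, by 1.16. CDT1 and CDC6, which load the replicative helicase, fell by 0.89 and 0.82, and MCM4, a subunit of that helicase, by 0.51. The summed level was 1423 to 1429 CPM in KD2, 1054 to 1115 in KDR and 784 to 836 in NT. Of 33 genes of homologous recombination and Fanconi anaemia repair, 13 (39.4%) fell and 1 rose, or none without KD2 replicate 2 or 3 or KDR replicate 3 and 2 or 3 without any single NT library. Falls included the strand exchange factor RAD51B (-1.46) and the Fanconi anaemia gene FANCD2 (-0.65). BRCA1, added after its values were seen, went from 38.7 to 42.5 CPM in KD2 to 29.6 to 30.1 in KDR (-0.44 ± 0.10, NT mean 13.4).

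Nucleotide synthesis genes also fell more often than they rose. Of 29 tested genes of pyrimidine supply, 12 fell (41.4%) and 2 rose, with a median of -0.23; without KD2 replicate 1, only 1 rise was called, since the rise of DHODH was lost. RRM2, the regulated subunit of ribonucleotide reductase, stood at 48.6, 51.5 and 53.8 CPM in KD2 and 27.4, 28.6 and 29.6 in KDR (-0.85 ± 0.09, adjusted p = 2.5e-07). RRM1, its large subunit, TK1, the thymidine kinase of S phase, SAMHD1, which degrades deoxynucleotides, and SLC29A1, a nucleoside transporter, fell by 0.35 to 0.76. Of 20 purine genes, 9 fell and 3 rose. XDH, which makes uric acid, fell from 19.7 to 23.8 CPM to 5.49 to 6.58 (-1.88 ± 0.16), and GART of the purine pathway by 0.43, while ADSS1, ADSS2 and PRPS1 rose by 0.28 to 0.91.

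Ribosomal protein genes moved by a small and uniform amount. Of 49 tested, 48 (98.0%) fell and none rose, and the log2 fold changes ran from -0.50 to -0.08 with a median of -0.34. RPL7 stood at 1121, 1128 and 1117 CPM in KD2 and 791, 789 and 799 in KDR (-0.50 ± 0.04, adjusted p = 2.1e-09), near its NT mean of 748. The KD2 and KDR libraries did not overlap for any of the 49 genes, beside 49.9% of all genes tested without overlap. RPLP1 was among the 49, though it was not called (-0.08, adjusted p = 0.32). The members summed to 41811 to 42637 CPM in KD2 and 32976 to 33586 in KDR, and NT spanned 30941 to 36089. Of 33 genes of MYC and ribosome biogenesis, 20 (60.6%) fell and 1 rose, with a median of -0.25, and none rose without any single KD2 or KDR library. The falls include UTP20 and FBL of ribosomal RNA processing (-0.65 and -0.52) and POLR1B of RNA polymerase I (-0.48). MYC, added after its values were seen, went from 182, 187 and 182 CPM to 146, 150 and 137 (-0.35 ± 0.06), above its NT mean of 90.8.

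**Figure D3:**
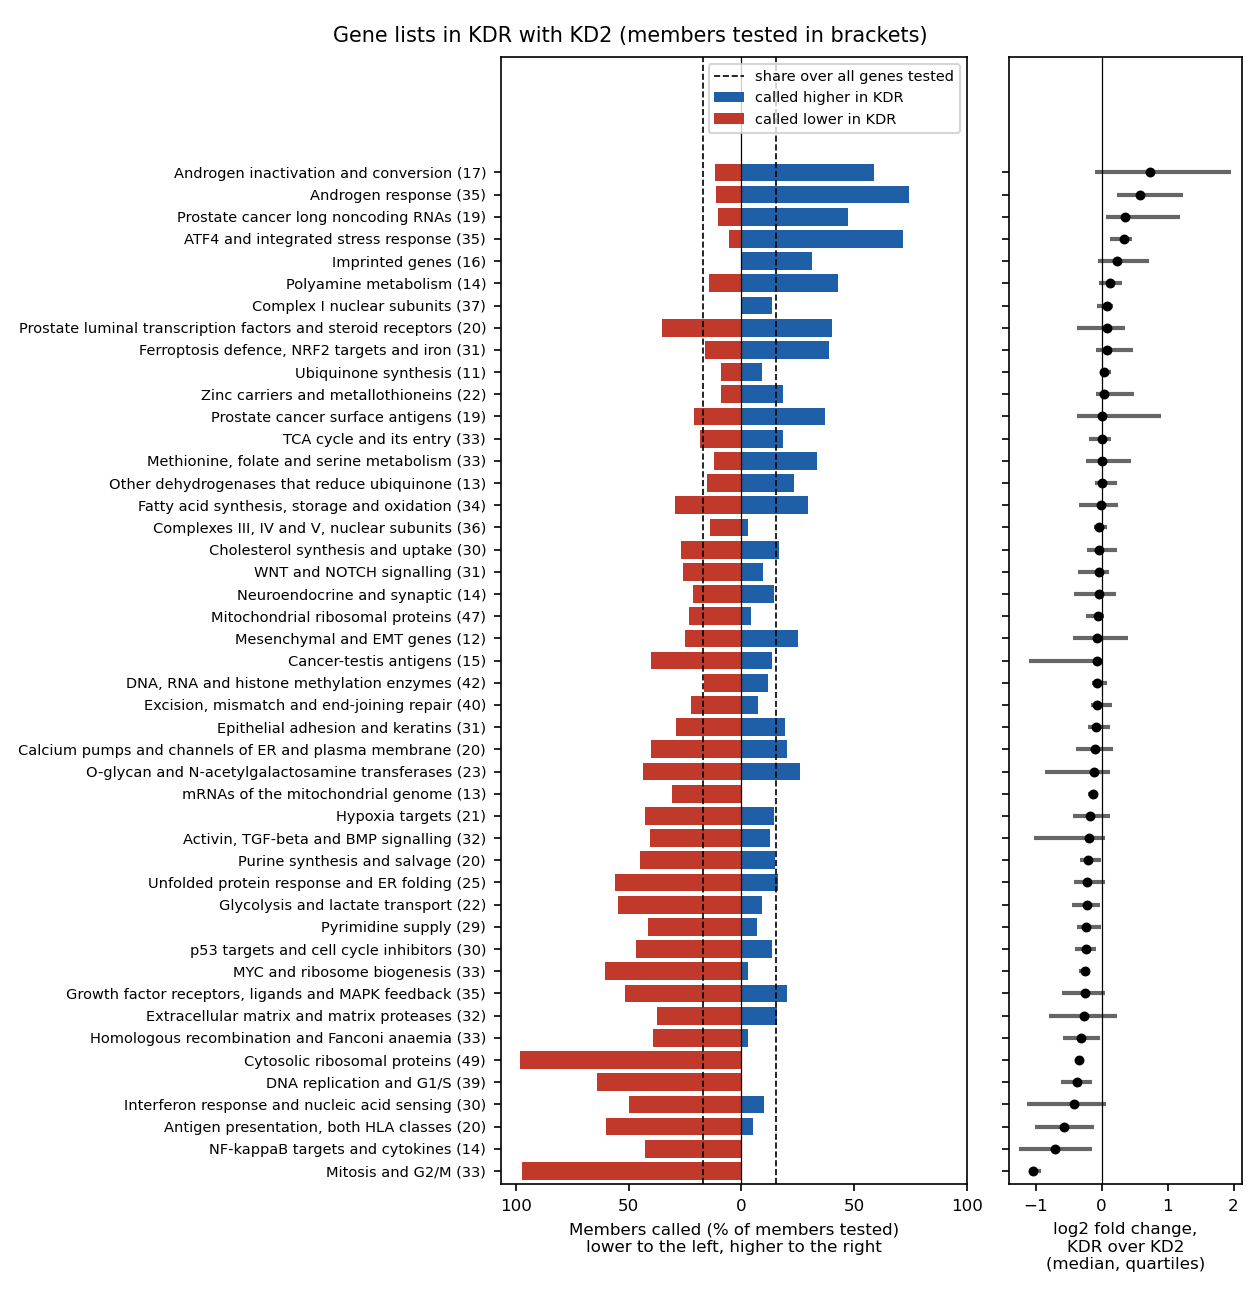
Left, the share of tested members called higher (blue) or lower (red) in KDR for each list with at least 10 tested members, with the shares over all genes as dashed lines (15.3% and 17.1%); right, the median log2 fold change (point) and quartiles (line). Mitosis and ribosomal protein genes stand at the lower end by share and androgen response genes near the upper end.

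The 2 stress programmes of the endoplasmic reticulum and of amino acid supply went in opposite directions. Of 35 tested genes listed for the factor ATF4 and the integrated stress response, 25 (71.4%) rose and 2 fell, with a median of 0.34. ATF4 itself is counted among the 25. CHAC1, which degrades glutathione, stood at 27.9, 31.2 and 28.0 CPM in KD2 and 63.8, 63.3 and 67.4 in KDR (1.16 ± 0.08, adjusted p = 1.2e-10), below its NT mean of 87.4. PCK2, the mitochondrial PEP carboxykinase, rose by 1.03, the glycyl-tRNA synthetase gene GARS1 by 0.52, and SLC7A11 and SLC3A2, which together form the cystine importer, by 0.58 and 0.47. PHGDH and PSAT1 of serine synthesis rose by 0.43 and 0.45. ASNS, the asparagine synthetase (1.07), GDF15, a secreted stress cytokine, and ATF4 were added after their values were seen. GDF15 fell from 4084, 4180 and 4467 CPM to 3264, 3237 and 3131 (-0.40 ± 0.05), under its NT mean of 5064. VLDLR was the other member that fell (-0.55). ATF4 itself rose by 0.14 (adjusted p = 0.031), a call that ended without KD2 replicate 1 or 2 and without any single KDR library (adjusted p of 0.074 to 0.13).

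Of 25 tested genes of the unfolded protein response and folding in the endoplasmic reticulum, 14 (56.0%) fell and 4 rose, with a median of -0.21. HSPA5, the chaperone BiP, stood at 1651, 1640 and 1621 CPM in KD2 and 1080, 1067 and 1060 in KDR (-0.62 ± 0.04, adjusted p = 9.4e-11), and the KDR libraries lay under the NT mean of 1218. PDIA4, a disulphide isomerase, MANF, a secreted survival factor, and HSP90B1, the chaperone GRP94, fell by 0.65, 0.56 and 0.44. CALR (calreticulin) and PDIA6, chosen after their values were seen, fell by 0.42 and 0.46. CREB3L4, a membrane-bound factor of prostate epithelium, rose by 0.61. The 4 members that rose were CREB3L4, HERPUD1, ERN1 and XBP1.

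These 2 programmes use different promoter elements. Both lists hold genes known for these programmes, so the shares below describe the lists and not KDR against KD2. The CEBP-ATF response element (CARE), searched as TGATGNAA on both strands, occurred in 12 of 32 ATF4 list genes with a RefSeq promoter (37.5%), beside 3.62% of promoters and 4.46% of genes. The endoplasmic reticulum stress element (ERSE), searched on both strands as CCAAT and CCACG with 9 bases between them, occurred in 7 of 24 genes of the unfolded protein response list (29.2%), beside 0.0769% of promoters and 0.0916% of genes. Carriers of an element did not all move alike: XBP1 carries ERSE and rose (0.18, adjusted p = 0.0041), and NARS1, SLC1A4 and SLC7A1 carry CARE and were not called. The stretches are shown on the gene's strand to give examples of each element from called genes; capitals mark the element or its reverse complement. They are CHAC1 (chr15:40953222-40953309), ASNS (chr7:97872429-97872516, minus strand), GARS1 (chr7:30594805-30594877), HSPA5 (chr9:125241351-125241449, minus strand), CALR (chr19:12938359-12938442), HSP90B1 (chr12:103930281-103930379) and PDIA6 (chr2:10812813-10812911, minus strand), with the plus strand where none is named.
CHAC1: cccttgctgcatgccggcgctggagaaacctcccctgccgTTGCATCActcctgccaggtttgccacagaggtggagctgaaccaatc
ASNS: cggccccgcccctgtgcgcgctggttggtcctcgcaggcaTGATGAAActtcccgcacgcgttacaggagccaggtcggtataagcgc
GARS1: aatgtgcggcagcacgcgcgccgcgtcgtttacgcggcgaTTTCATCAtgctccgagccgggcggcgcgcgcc
HSPA5: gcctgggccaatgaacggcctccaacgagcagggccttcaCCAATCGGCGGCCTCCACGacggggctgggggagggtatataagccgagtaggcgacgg
CALR: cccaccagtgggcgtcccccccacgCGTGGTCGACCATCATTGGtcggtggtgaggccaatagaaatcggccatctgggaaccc
HSP90B1: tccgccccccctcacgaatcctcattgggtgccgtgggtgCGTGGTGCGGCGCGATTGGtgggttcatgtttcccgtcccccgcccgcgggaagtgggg
PDIA6: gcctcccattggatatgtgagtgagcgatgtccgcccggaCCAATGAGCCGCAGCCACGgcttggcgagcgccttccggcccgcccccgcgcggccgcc

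**Figure D4:**
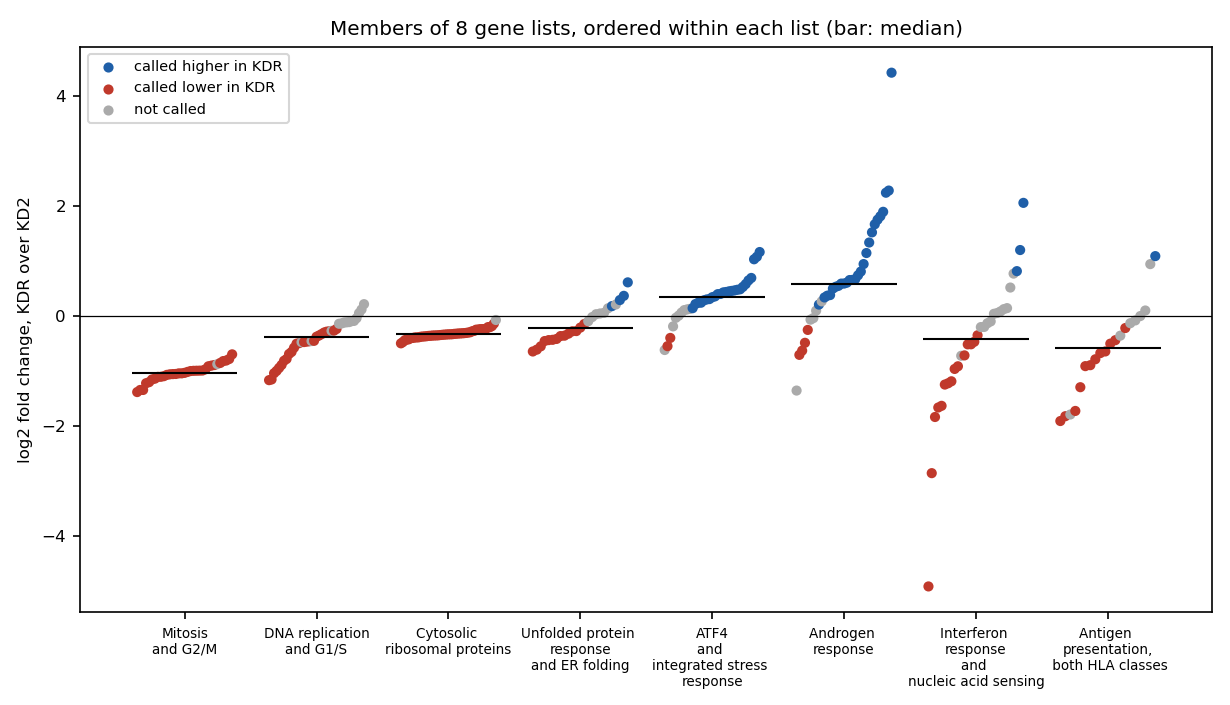
Each point is a tested member of 1 of 8 gene lists, ordered within its list by log2 fold change, KDR over KD2 (y axis); colour gives the call and the black bar the list's median. Mitosis members lie together near -1.04 and ribosomal protein members near -0.34, while interferon and androgen response members spread widely.

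Androgen response genes were among the groups that rose. Of 35 tested, 26 (74.3%) rose and 4 fell, with a median of 0.59. FOLH1, which encodes prostate-specific membrane antigen, went from 291, 292 and 286 CPM to 1048, 1080 and 1088 (1.89 ± 0.05), below its NT mean of 1491. SLC45A3, the prostate antigen prostein, went from 584, 605 and 620 CPM to 2140, 2117 and 2077 (1.81 ± 0.05), close to its NT mean of 2125. The groups of these genes did not overlap. HPGD, which inactivates prostaglandins, and the kallikrein KLK2 rose by 2.24 and 1.52, with KDR means above those of NT.

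KLK3 and FKBP5 were chosen after their values were seen. KLK3 went from 6184, 6325 and 6335 CPM to 7942, 8224 and 8103 (0.36 ± 0.06, NT mean 8955). FKBP5, a co-chaperone of steroid receptors, went from 153, 150 and 148 CPM to 370, 383 and 382 (1.33 ± 0.06). The members of the list summed to 15109 to 15351 CPM in KD2 and 24121 to 24474 in KDR, and NT spanned 23436 to 26138.

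Other prostate genes moved in both directions. Of 17 tested genes of androgen inactivation and conversion, 10 (58.8%) rose and 2 fell, with a median of 0.74; RDH11, a retinol dehydrogenase, rose by 1.16 and HSD17B4, a peroxisomal dehydrogenase, by 0.55. Of 20 luminal transcription factors and steroid receptors, 8 rose and 7 fell. ETV1, an ETS factor, fell from 1428, 1400 and 1353 CPM to 446, 448 and 462 (-1.62 ± 0.06, adjusted p = 1.4e-15), and CREB3L1, a membrane-bound factor, by 1.19. HOXB13, a homeobox factor, rose by 0.42. Among surface antigens used as drug targets, 7 of 19 (36.8%) rose and 4 (21.1%) fell, beside 15.3% and 17.1% over all genes. STEAP2, a metalloreductase, rose by 1.14 and PSCA, prostate stem cell antigen, fell by 1.24. Of 19 long noncoding RNAs studied in prostate cancer, 9 rose and 2 fell. NEAT1, the scaffold of paraspeckles, stood at 983, 969 and 979 CPM in KD2 and 1994, 2109 and 2112 in KDR (1.08 ± 0.04), and the androgen-regulated ARLNC1 and PCA3 rose by 1.43 and 1.34. PCAT14 fell by 0.89.

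Markers of prostate luminal cells were abundant, and those of other cell types were low or at 0. All 11 luminal markers were tested, and 9 rose and none fell in KDR, except that 1 fell without NT replicate 2 or 3. Summed, they held 11427 to 11778 CPM in KD2 and 18346 to 18760 in KDR, beside 18192 to 21424 in NT. Of 9 basal markers, 6 were tested and 3 fell, ITGA6 (-0.93), DST (-0.50) and COL17A1 (-0.49). The COL17A1 call ended without KD2 replicate 3, KDR replicate 1 or KDR replicate 2 (adjusted p of 0.059 to 0.073). The basal keratins KRT5 and KRT6A were at 0 in all 6 libraries, and the basal list summed to 104 to 114 CPM in KD2 and 65.4 to 67.3 in KDR. Fibroblast and muscle markers, with DCN and DES at 0, summed to 14.8 to 16.3 and 20.8 to 25.5 CPM. Of 12, 5 were tested and 2 rose, TAGLN (0.70) and COL1A1 (1.02), the latter not without KDR replicate 2 (adjusted p = 0.060). Immune markers, with CD3D, CD3E and CD68 among those at 0, summed to 1.90 to 4.30 and 1.28 to 1.70 CPM. Of 12, 2 were tested and CD8A fell (-3.09), with only 56 counts over the KD2 libraries and 7 over the KDR libraries. Endothelial markers, with PECAM1, CDH5, TEK, ERG and the VEGF receptor gene whose symbol the label KDR shares at 0, summed to 24.7 to 27.9 and 28.2 to 31.2 CPM. Of 9, 3 were tested and VWF was called lower (-1.86), a call that ended without any single KD2 library or without KDR replicate 2 or 3 (adjusted p of 0.069 to 0.13).

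Energy metabolism genes changed in both directions, and glycolysis genes fell more often than they rose. Of 22 tested genes of glycolysis and lactate transport, 12 (54.5%) fell and 2 rose, with a median of -0.22. SLC16A1, the lactate carrier MCT1, stood at 64.0, 57.5 and 51.7 CPM in KD2 and 19.2, 17.5 and 18.2 in KDR (-1.66 ± 0.12), near its NT mean of 17.1. HK2, GAPDH and LDHA fell by 0.61, 0.49 and 0.45, and PGK1 rose by 0.57. Of 33 tested genes of the TCA cycle and its entry, 6 rose and 6 fell (18.2% each), near the 15.3% and 17.1% over all genes. The falls numbered 2 or 3 without KD2 replicate 1 or 2 or KDR replicate 1 or 3, and 11 without NT replicate 2. IDH1, the cytosolic isocitrate dehydrogenase, rose from 236 to 255 CPM to 463 to 485 (0.95 ± 0.05, adjusted p = 4.8e-13), above its NT mean of 402. Of 13 tested genes listed for other dehydrogenases that reduce ubiquinone, as DHODH does, 3 (23.1%) rose and 2 (15.4%) fell. The list counts subunits such as SDHA to SDHD separately and also holds ETFA, ETFB and COQ10A. NQO1 and SQOR rose by 0.34 and 0.53, and CHDH and GPD2 fell by 0.66 and 1.84. AIFM2, a ubiquinone reductase that guards against ferroptosis, was called at 0.24, a call that ended without any single KD2 library or without KDR replicate 1 or 2 (adjusted p of 0.053 to 0.094).

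Among nuclear genes of the respiratory chain, a smaller share was called than the 32.4% over all genes. For mRNAs of the mitochondrial genome the share was 30.8%, close to it. Genes over 100 CPM were called more often, 20.4% higher and 30.4% lower. The 32.4% is therefore not a reference of like level for abundant mRNAs. Without NT replicate 2, 7876 of 20065 genes tested were called. Of 37 nuclear subunits of complex I, 5 rose and none fell, with a median of 0.09; without NT replicate 2, 8 rose and 3 fell. The called members were NDUFA7 (1.23), NDUFA13 (0.95), NDUFB1 (0.49), NDUFS8 (0.39) and NDUFB3 (0.37). NDUFA7 and NDUFA13, at most at 1.61 and 4.91 CPM in any KD2 or KDR library, overlap other genes, and NDUFA7 lost its call without KD2 replicate 1 or KDR replicate 1 (adjusted p of 0.060 and 0.063). Of 36 subunits of complexes III, IV and V, 5 fell and 1 rose, with a median of -0.03; 11 fell and 3 rose without NT replicate 2, and 3 fell without KDR replicate 3. Of the 13 mRNAs of the mitochondrial genome, 4 fell and none rose, by 0.21 to 0.27. That count ran from 1 to 2 without any 1 of the KD2 or KDR libraries, and was 7 and 9 without NT replicates 2 and 3. MT-ND6, the sole mRNA of the light strand, stood at 335, 354 and 363 CPM in KD2 and 301, 293 and 284 in KDR (-0.26 ± 0.05, adjusted p = 6.4e-04).

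Lipid synthesis genes split within their lists. Of 34 tested genes of fatty acid synthesis, storage and oxidation, 10 rose and 10 fell. ACACA, which makes malonyl-CoA, went from 758, 788 and 771 CPM to 1186, 1184 and 1168 (0.61 ± 0.05), and the elongases ELOVL2 and ELOVL5 rose by 1.38 and 0.53. HADHB of fatty acid oxidation fell by 0.51. SREBF1, the regulator of this pathway, and the desaturase SCD, both chosen after their values were seen, were far from NT in both lines. SREBF1 stood at 449, 465 and 487 CPM in KD2, 594, 580 and 572 in KDR (0.32 ± 0.06) and at a mean of 122 in NT; SCD stood at 1012 to 1027 CPM, 1262 to 1308 CPM (0.34 ± 0.04) and 419. In cholesterol synthesis, TM7SF2 and LSS rose by 0.59 and 0.57, and SQLE, the squalene epoxidase, fell by 0.69. Of 33 tested genes of methionine, folate and serine metabolism, 11 rose and 4 fell, or 7 without NT replicate 2. SHMT1 (0.94) and ALDH1L1 (3.85) of folate metabolism rose, and AHCYL2 (-0.49), MTAP (-0.45), MTHFD1 (-0.36) and AHCY (-0.24) fell. The polyamine enzymes SAT1 and AMD1 rose by 0.59 and 0.34.

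Interferon and antigen presentation genes fell more often than they rose. Of 30 tested interferon genes, 15 fell and 3 rose, with a median of -0.41; 5 rose without NT replicate 2. OAS3 and OAS1, which sense double-stranded RNA, changed by -1.84 and -2.86, and the sensors DDX60 and IFIH1 by -1.67 and -0.97. OAS3 stood at 19.4 to 20.9 CPM in KD2, 5.03 to 6.77 in KDR and 16.2 in the NT mean, so that KDR lay apart from both. MX1, a GTPase of the same response, rose from 14.2 to 16.2 CPM to 60.0 to 65.3 (2.051 ± 0.09). MX1 overlaps TMPRSS2 on the other strand, and TMPRSS2, a serine protease gene under androgen control, rose by 0.67 at levels of 1857 to 3028 CPM.

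Of 20 tested genes of antigen presentation, 12 (60.0%) fell and 1 rose, with a median of -0.58. PSMB8, a subunit of the immunoproteasome, stood at 19.3, 19.5 and 17.8 CPM in KD2 and 4.97, 5.16 and 5.89 in KDR (-1.82 ± 0.14, adjusted p = 3.4e-10), beside 17.1 in NT. The peptide trimmer ERAP2, the class I gene HLA-B and the peptide transporter TAP2 fell by 1.30, 0.91 and 0.90. HLA-DRA, a class II gene, was the member that rose, from 114, 115 and 118 CPM to 236, 251 and 246 (1.08 ± 0.06), against 119 in NT. Of 14 tested NF-kappaB targets, 6 fell and none rose; without KD2 replicate 1 or NT replicate 2, 1 rose. BIRC3, an inhibitor of apoptosis, and the chemokine CXCL8 fell by 1.25 and 1.54.

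Growth factor and matrix genes included some of the most abundant changes. Of 35 tested growth factor receptors, ligands and MAPK feedback genes, 18 (51.4%) fell and 7 rose. SPRY4 and DUSP5, feedback inhibitors of MAPK signalling, went from 800 to 821 CPM to 239 to 260 (-1.68 ± 0.05) and from 374 to 405 CPM to 191 to 197 (-1.01 ± 0.06). VEGFA, the angiogenic factor, rose from 446, 427 and 444 CPM to 1079, 1050 and 1065 (1.28 ± 0.04, adjusted p = 1.8e-16), above its NT mean of 698, and IGF1R, the receptor of insulin-like growth factors, rose by 0.80. Among 21 tested hypoxia targets 9 fell, CA12 by 1.94 and ADM by 1.45 among them, while 3 rose. WNT5A, a noncanonical WNT ligand, fell from 3484, 3434 and 3394 CPM to 1663, 1574 and 1646 (-1.08 ± 0.07), which is above its NT mean of 742.

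Of 32 tested matrix genes and proteases, 12 (37.5%) fell and 5 rose. MMP7 (matrilysin) stood at 442, 411 and 432 CPM in KD2, 91.8, 96.3 and 90.2 in KDR (-2.21 ± 0.06) and at a mean of 22.8 in NT. ADAMTS1, a protease of proteoglycans, went the other way, from 11.6, 12.9 and 10.3 CPM to 143, 140 and 139 (3.60 ± 0.09), beside 36.3 in NT. The collagen COL4A6 rose by 2.52. Of 32 genes of activin, TGF-beta and BMP signalling, 13 (40.6%) fell, among them INHBA, the decoy receptor BAMBI (-0.99) and ID2 (-0.69). The 4 that rose were the BMP receptor genes BMPR1B (1.75) and BMPR1A (0.23), the feedback gene PMEPA1 (0.49) and SMAD4 (0.29), and 2 rises were called without KDR replicate 3. ST3GAL1, which caps O-glycans with sialic acid, fell from 1399, 1435 and 1437 CPM to 598, 626 and 610 (-1.22 ± 0.05), below its NT mean of 1226. In the p53 list, 14 of 30 tested genes (46.7%) fell and 4 rose. The falls include CDKN1A (-0.68), the cell cycle inhibitor p21, and BTG2 (-0.76). The receptor gene EDA2R rose by 1.70.

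Cancer-testis antigens and imprinted genes, classes under tight epigenetic control, each held a few large changes. MAGEA4 stood at 401, 411 and 409 CPM in KD2 and 33.9, 34.5 and 35.3 in KDR (-3.56 ± 0.06, adjusted p = 7.3e-22), beside a mean of 156 in NT. MAGEA10 and MAGEA1 fell by 2.40 and 1.23, MAGEA11 rose by 1.84 and PRAME fell by 0.97; of 15 tested members of the list, 6 fell and 2 rose. MAGEA genes have near-identical copies, and MAGEA4 overlaps an antisense gene, MAGEA4-AS1, that fell by 4.23, so their separate levels are uncertain. Of 16 tested imprinted genes, 5 rose and none fell, except that 1 fell without KDR replicate 3. Besides SGCE and PEG10 these were NLRP2 (3.22), L3MBTL1 (1.17) and GRB10 (0.35).

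Rises outnumbered falls among antisense and lincRNA genes, while falls outnumbered rises among protein-coding genes. The excess of rises was not particular to antisense and lincRNA genes. Genes without a class were 15.7% higher and 4.31% lower, sense intronic genes 10.6% and 1.32%, but processed pseudogenes 4.98% and 7.82%. Of all genes under 1 CPM, 7.16% rose and 3.48% fell. The counting recorded no strand, so antisense and intronic counts may include reads of an overlapping gene. Of 13640 protein-coding genes, 16.2% were called higher and 22.2% lower (median -0.03), whereas 14.9% of 1492 antisense genes were higher and 3.55% lower (median 0.34), and 14.5% of 1183 lincRNA genes were higher and 6.59% lower (median 0.22). From 5 to 20 CPM, 37.1% of 286 antisense, lincRNA and sense intronic genes rose and 12.2% fell, against 17.8% and 23.6% of coding genes. The contrast did not hold at every level: under 1 CPM, 8.17% of coding genes rose and 6.71% fell, and over 100 CPM, 2 of the 8 noncoding genes rose and 3 fell. Antisense, lincRNA and sense intronic genes together took 1.24% to 1.26% of the counts in the KDR libraries, 1.04% to 1.05% in KD2, 1.01% to 1.09% in NT and 1.06% to 1.09% in KD1. KDR stood above all other libraries in this share. A share of counts is weighted to abundant genes. NEAT1 alone had 86000 counts over the KD2 libraries, 191368 over the KDR libraries and 140645 over the NT libraries. The share without NEAT1 was not computed.

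**Figure D5:**
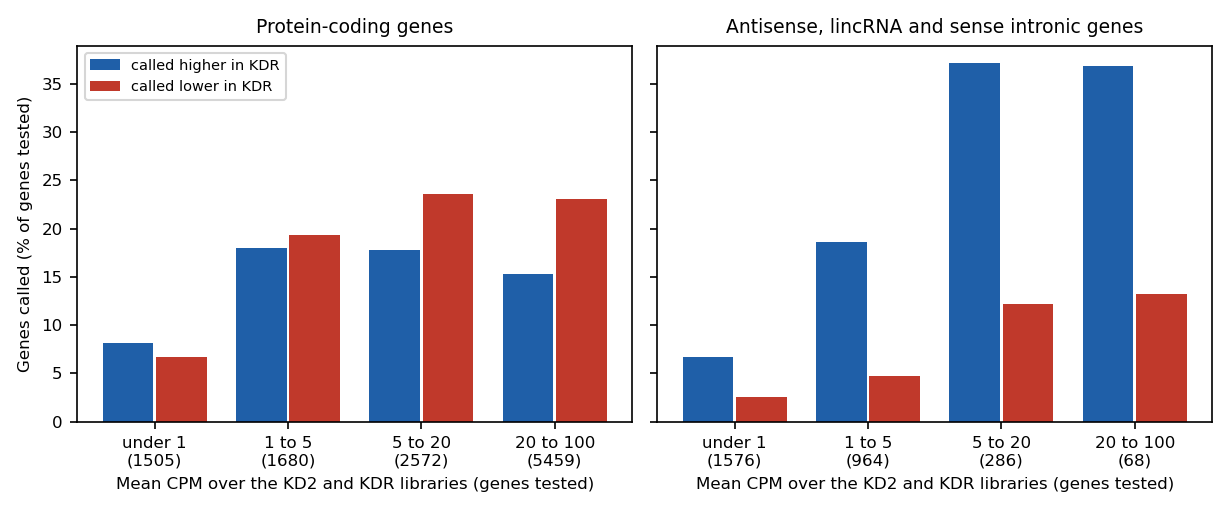
Bars give the percentage of tested genes called higher (blue) or lower (red) in KDR by mean level over the 6 libraries, for protein-coding genes (left) and for antisense, lincRNA and sense intronic genes (right), with the number tested in brackets. From 5 to 100 CPM the blue bars exceed the red on the right and the red exceed the blue on the left.

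Some noncoding genes were nearly absent in 1 of the groups. LINC02713 had 0 counts in all 3 KD2 libraries and 1054 over the KDR libraries, at least 334-fold higher with a floor of 3 counts over the KD2 group; NT had 4 counts and KD1 none. BSG-AS1 stood at 0.227, 0.139 and 0.0835 CPM in KD2 and 89.1, 92.8 and 94.4 in KDR (9.14 ± 0.22, adjusted p = 4.2e-19), with 0.326 in NT. It overlaps BSG, the basigin gene, on the other strand, and BSG was at 574 to 610 CPM in KD2 and 637 to 644 in KDR (0.12, adjusted p = 0.099). FLG-AS1 and CCDST, next to filaggrin, rose by 5.14 and 3.55. In the other direction, C2CD5-AS1 stood at 31.1, 24.1 and 21.6 CPM in KD2 and 0.0292, 0.193 and 0.110 in KDR, and C2CD5 on the other strand fell with it from 175 to 203 CPM to 57.2 to 62.6 (-1.67). SSTR5-AS1 fell by 3.11. MTX1P1 fell by 1.79, a call that ended with DESeq2 (adjusted p = 0.065) and without KDR replicate 2 (0.054).

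A pair of genes without a symbol, picked after their values were seen, had the lowest fitted fold changes of all genes tested. ENSG00000254366, classed as a lincRNA on chromosome 8, stood at 124, 125 and 114 CPM in KD2 and 0.0292, 0 and 0 in KDR, and at 0 in all NT and KD1 libraries. ENSG00000258490, classed as antisense on chromosome 14, stood at 146, 141 and 127 CPM in KD2 and 0.117, 0.0322 and 0 in KDR, with at most 0.124 CPM in any NT or KD1 library. Both were thus abundant in the KD2 libraries and at or near 0 in the other 9, those of the line described as built on KD2 included.

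Called genes were spread over the genome with some local runs. The share called higher was 21.1% on chromosome 21, 19.5% on chromosome 15 and 18.5% on chromosome 19, beside 15.3% over all tested genes. On these chromosomes 10.1%, 15.6% and 10.1% were called lower. The share called lower was 23.9% on chromosome 8, 22.8% on chromosome 4 and 22.7% on chromosome X, beside 17.1% over all tested genes. Of 16 tested genes of the mitochondrial genome, 4 were called lower and 0 higher. There were 43 runs of at least 5 neighbouring tested genes called in 1 direction, 26 higher and 17 lower, with 256 genes. Neighbouring genes can share reads or promoters, so no test was made. The longest, at chr2:130356045-130718831, held 13 genes that rose with a median of 5.54, among them POTEI, POTEJ, CYP4F30P, KLF2P2, KLF2P3, CFC1 and PTPN18. It includes near-identical copies, whose separate levels are uncertain. PTPN18, a tyrosine phosphatase gene, rose from 124 to 128 CPM to 210 to 221 (0.78 ± 0.06), and KLF2P2 had 0 counts in KD2 and 234 in KDR.

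The run around SPON2, at chr4:932387-1250333, held 10 genes that rose with a median of 0.59. TMEM175, DGKQ, SLC26A1, IDUA and FGFRL1 rose by 0.38 to 0.60 and CTBP1-AS by 1.29. The rise of CTBP1 (0.16, adjusted p = 0.038) ended without any single KD2 or KDR library (0.067 to 0.13). At chr2:233351132-233773300, 8 genes rose: DGKD and USP40 by 0.54 and 0.60, and the UGT1A genes UGT1A6 and UGT1A1, which share exons, by 6.42 and 3.95. UGT1A2P, with at most 21 counts in a library, lost its call without KD2 replicate 1, KD2 replicate 3 or KDR replicate 2 (0.051 to 0.071). At chr1:36136570-36450451, 8 genes rose, SH3D21 by 1.31, MAP7D1 by 0.62, OSCP1 by 0.62, STK40 by 0.54 and LSM10 by 0.36. The rises of TRAPPC3 (0.21) and THRAP3 (0.13) ended without any single KD2 or KDR library (adjusted p of 0.084 to 0.13). THRAP3 also lost its call with no filter on low counts (0.20) and with the replicate number as a block (0.062).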

How the data were processed

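The authors deposited 1 table of raw counts per gene for each library. Per the file headers, featureCounts 1.6.4 counted reads over exons grouped by gene with Ensembl release 111 on GRCh38, with no option for strand, pairs or multimapping reads. The submitters' processing notes also name FastQC, cutadapt and HISAT2, with versions not given in the sources used here.

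Of 63241 genes, 19373 passed filterByExpr in edgeR 4.0.16 (R 4.3.3). After TMM scaling, 1 quasi-likelihood model with group as its only term was fitted to all 12 libraries, whose totals ran from 23786288 to 38240369 counts. A gene was called at a Benjamini-Hochberg adjusted p under 0.05 over all genes tested; intervals are 95%. CPM are scaled by TMM. Counts at or near 0 carry a floor of 3 counts, which covers counting error only. In simulated data for this comparison with 19373 genes, 89% of 2-fold and 72% of 1.5-fold changes (100 genes each) were called. The changed genes were drawn from those with a mean of at least 1 CPM. They were a far smaller share than the 32.4% called in the data, so these rates need not hold there.

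The members and lists were chosen with earlier results of these data known. Named genes are DHODH, CAD and UMPS, the largest changes with a mean of at least 5 CPM (14 coding genes in each direction, 4 noncoding) or 200 CPM (8 in each direction), up to 5 members of each of 51 lists by adjusted p, members that did not pass, and the 4 longest runs. Others were chosen after their values were seen. Gene classes come from GENCODE 29. Alternatives were DESeq2 1.42.0, its size factors, limma-voom (limma 3.58.1), other filters, fewer groups, the replicate block and leaving out each library. Some genes are not reported here.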

Additional observations from a re-analysis of the deposited data

How the results depend on the processing

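Calls ran from 5093 to 5383 without any 1 of the KD2 or KDR libraries, and were 6499, 7876 and 6620 without NT replicates 1, 2 and 3, a choice added after seeing the data. DESeq2 called 6598 genes, limma-voom 8189, a fit of only KD2 and KDR 7986, edgeR with the size factors of DESeq2 6301, no filter on low counts 6133 and a filter at 1 CPM 6114. With a minimum of a 2-fold change, 1683 were called. In no setting did a gene called in both fits change sign. The log2 fold change of DHODH ran from 0.41 to 0.60 when 1 library was left out.

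The replicate numbers did not pair the libraries: same-numbered KD2 and KDR libraries had residual correlations of -0.07 to 0.01. With the replicate number as a block, 6190 genes were called.

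Of 305 named genes that were called, 285 were called in all 16 settings that gave a value. The other 20 lost the call in at least 1, and none reversed. Most named genes were picked for large changes or low adjusted p, so this share does not describe calls at large. Without any 1 of the KD2 or KDR libraries, 6279 to 6285 of the main calls were tested again. Of these, 4973 to 5147 were still called. Of 51 list counts of at least 5, 12 moved by more than 1.5 times in some setting; the cause was not tested. At 5 CPM or more on average, the 95% interval lay within 1.5-fold in either direction for 74.0% of genes. The rest include large changes with narrow intervals, such as IGFBP3 (-2.33 ± 0.04). This share therefore mixes size of change with precision and cannot show how far depth limits small changes.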
